A study of Homo sapiens with 18 samples.

Results

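The 31 genes described here are known targets of p53: MDM2, MDM4, PPM1D and CCNG1 of its feedback loop, CDKN1A, BTG2, PLK2 and PLK3 of cell cycle control, 11 genes of cell death signalling, 3 of DNA repair, 4 of metabolism and mitochondria, and 5 others. They were chosen by gene symbol. All 31 were among the 41120 symbols of the deposited count table. Of these 31, 28 passed the filter on low counts (at least 10 counts in a library of median size, in at least 4 libraries) and were tested with 12291 genes in all. EDA2R, TNFRSF10C and SPATA18 did not pass and are given by their values only.

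The p53 protein is a transcription factor that is stabilised by DNA damage and other stress, binds paired decamer motifs, and switches on genes that halt the cell cycle, repair DNA or drive cell death. One of its targets, MDM2, is the ubiquitin ligase that degrades p53, so that the pathway limits itself. FaDu is a pharyngeal carcinoma line without papillomavirus, in which p53 function is lost by mutation. SCC154 is an oral carcinoma line with papillomavirus, whose E6 protein recruits the ligase UBE3A to degrade p53.

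The study compared post-hypoxic with non-hypoxic cells of these lines, and the design also allows a comparison of the lines. Both lines had been transduced with a hypoxia-fate mapping reporter (hfm), which turns a cell from DsRed to GFP for good once it has met low oxygen. Spheroids were dissociated with trypsin, DsRed-positive (non-hypoxic) and GFP-positive (post-hypoxic) cells were sorted, and each fraction was cultured in normal oxygen before RNA extraction and 3′ tag sequencing, which reads the transcript end beside the poly(A) tail. The 18 libraries comprised 4 of non-hypoxic FaDu (replicates 1 to 4), 5 of post-hypoxic FaDu (replicates 1 to 5), 5 of non-hypoxic SCC154 (replicates 1 to 5) and 4 of post-hypoxic SCC154 (replicates 2 to 5). All 4 groups thus carried the reporter and had been through spheroid culture, sorting and a period in normal oxygen, and no group was in hypoxia at extraction. With 1 line of each kind, papillomavirus status and every other property of a line cannot be told apart. The labels do not say whether replicates were separate cultures, so the spread behind each p-value is that of the sampled libraries and may be technical.

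Levels are in CPM, counts scaled to TMM-adjusted library sizes. Libraries held 1654719 to 2503573 counts, so that 1 CPM stood for 1.69 to 2.45 counts. All 9 epithelial markers examined (among them KRT5, KRT14, EPCAM and CDH1) had counts in every group, with a summed level of 1433 to 1967 CPM per library. Single markers differed between the lines in both directions. In the non-hypoxic fractions KRT5 was at 195 CPM in FaDu and 23.25 CPM in SCC154, and KRT14 at 23.4 and 3.26 CPM. KRT6A was at 79.9 and 428.6 CPM, and CDH1 at 85.2 and 187.1 CPM. Summed fibroblast markers stayed at or below 5.77 CPM, endothelial at or below 5.15 CPM and immune at or below 4.97 CPM per library, and COL3A1, LUM, KDR, CD3E and MS4A1 had no count in any library. Earlier work on these data named non-hypoxic SCC154 replicate 1 and post-hypoxic SCC154 replicate 3 as standing apart. Without both, 21 of 28 members passed the test between the lines in each fraction, against 68.6% and 68.1% of the 12434 genes then tested. Within SCC154 0 members passed, against 0.579% of genes.

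Promoter windows of 300 bases (250 before to 50 after the start site, RefSeq, GRCh38.p14) were available for 26 members and not for RRM2B, PHLDA3, TP53INP1, TNFRSF10C and CMBL. They were searched for the p53 half-site consensus, a decamer that reads the same on both strands, and for pairs of decamers up to 13 bases apart with at most 2 mismatches in all and both core motifs CNNG kept. A pair was found in 5 members (19.2%), against 3.62% of 27305 genes, and an exact decamer in 6 members (23.1%), against 8.06% of genes. The 5 pairs are shown because they match the paired motif that p53 binds and because their genes behaved differently in these cells: DDB2 and FDXR were higher in SCC154, AEN was lower, and MDM2 and FAS did not pass the test between the lines. Capitals mark the decamers; MDM2 is shown with up to 60 bases on each side, because this window is its inner promoter, from which p53 drives the gene.
MDM2, chr12:68808863-68809001, plus strand, pair 94 to 75 bases before the start with 2 mismatches: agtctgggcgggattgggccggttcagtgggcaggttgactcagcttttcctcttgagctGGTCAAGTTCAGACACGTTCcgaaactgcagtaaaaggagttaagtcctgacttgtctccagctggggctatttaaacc
DDB2, chr11:47214979-47214999, plus strand, 6 to 26 bases after the start with 0 mismatches: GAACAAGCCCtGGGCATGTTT
AEN, chr15:88621306-88621325, plus strand, 34 to 15 bases before the start with 2 mismatches: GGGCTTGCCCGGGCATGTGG
FAS, chr10:88991309-88991328, plus strand, 122 to 103 bases before the start with 2 mismatches: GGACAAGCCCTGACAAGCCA
FDXR, chr17:74872996-74873025, minus strand, 31 to 2 bases before the start with 2 mismatches and a spacer of 10 bases: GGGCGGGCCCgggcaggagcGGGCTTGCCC
DDB2 alone had an exact match in both decamers. PLK2 and SESN1 had a single exact decamer and no pair. A match is a description of the letters, and no match says only that the pattern is not in this window; the p53 sites of CDKN1A, for example, are known to lie farther upstream.

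Between the lines, the members did not move as a block. In the non-hypoxic fractions, 16 of the 28 tested members were higher in SCC154 and 5 were lower (edgeR quasi-likelihood test, Benjamini-Hochberg adjusted p under 0.05), where 68.9% of all tested genes were called, 34.5% higher and 34.5% lower. In the post-hypoxic fractions, 15 were higher and 6 lower, against a background of 69.7%, with 34.8% higher and 34.9% lower. The share of members called was thus near that of all genes, in lines that differed at most genes. The median log2 difference (SCC154 minus FaDu) of the tested members was 0.67 in the non-hypoxic and 0.58 in the post-hypoxic fractions, against -0.01 and 0.01 over all genes tested. In both fractions 15 members were called higher and 5 lower, POLH was called in the non-hypoxic and TIGAR in the post-hypoxic fractions only, and 6 (MDM2, MDM4, SESN1, BAX, FAS and CMBL) in neither. CDKN1A, TP53INP1 and BTG2 passed the filter on low counts through SCC154 alone, and BAX through FaDu alone, so these 4 entered the test because of the line where they were higher.

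**Figure D1:**
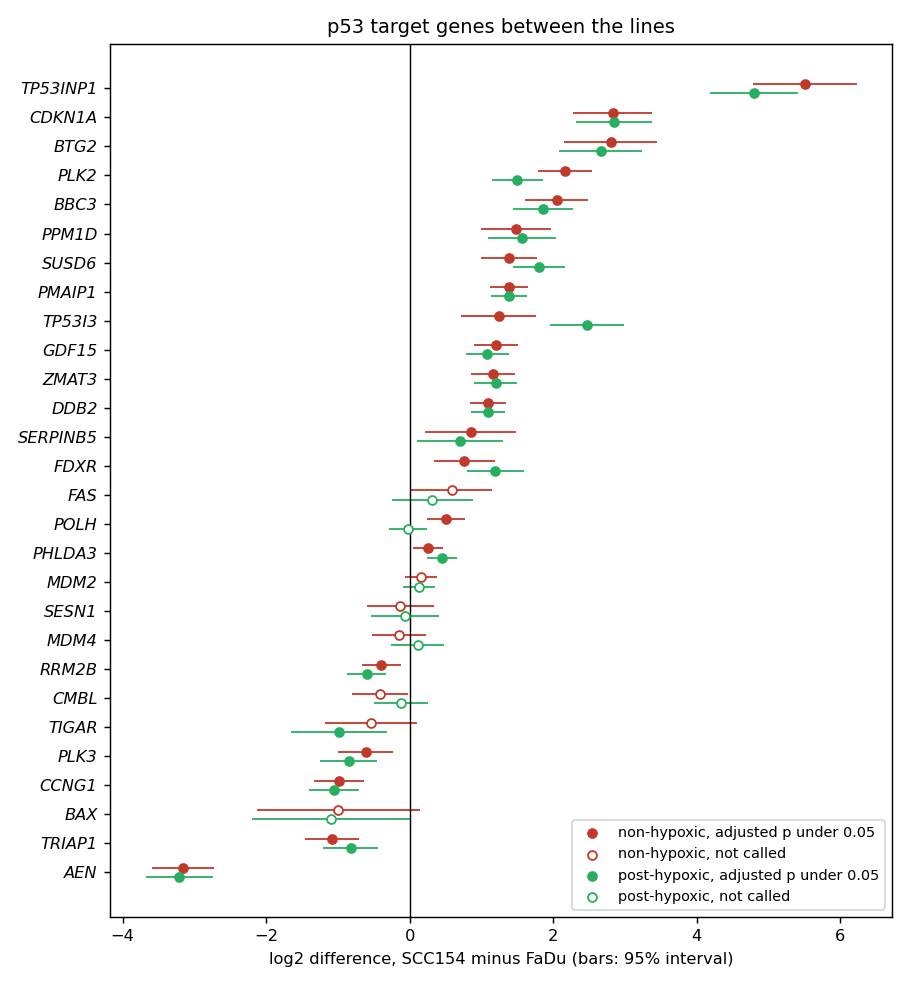
The log2 difference between SCC154 and FaDu of each of the 28 tested members, in the non-hypoxic and in the post-hypoxic fractions, with 95% intervals; filled points passed the test, and members are ordered by the non-hypoxic difference. TP53INP1 lies at the high end (5.51 and 4.80) and AEN at the low end (-3.16 and -3.21), while MDM2 lies near 0 in both fractions. TP53INP1, CDKN1A and BTG2 passed the filter on low counts through SCC154 alone and BAX through FaDu alone.

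Of the feedback genes, MDM2 did not differ between the lines beyond the spread of the libraries. MDM2 (chr12:68808176-68850686, hg38, GENCODE positions here and for later genes) was at 133, 144, 122 and 105 CPM in the non-hypoxic FaDu libraries and at 145, 153, 130.4, 129.9 and 143 CPM in the non-hypoxic SCC154 libraries. In the post-hypoxic fractions it was at 136, 124, 130.1, 117 and 132 CPM in FaDu and at 146, 115, 147 and 151 CPM in SCC154. The ranges of the lines overlapped in both fractions. The log2 difference was 0.15 (SE 0.11, adjusted p = 0.210) with a 95% interval of -0.07 to 0.37 in the non-hypoxic fractions, and 0.13 (SE 0.11, adjusted p = 0.282) with an interval of -0.09 to 0.35 in the post-hypoxic ones, so that the farthest bound was 0.37. MDM4, the MDM2 relative that masks p53's activation domain, was at group means of 95.2 and 80.7 CPM in non-hypoxic and post-hypoxic FaDu and 86.2 and 87.4 CPM in SCC154 and did not pass the test either (adjusted p = 0.473 and 0.591).

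The other feedback genes differed in opposite directions. PPM1D, a phosphatase that removes activating phosphates from p53 and its kinases, was at 9.93, 6.07, 3.48 and 9.12 CPM in non-hypoxic FaDu and 6.51, 7.33, 8.58, 4.52 and 6.13 CPM in post-hypoxic FaDu. In SCC154 it was at 21.1, 18.8, 20.0, 18.6 and 21.9 CPM and 22.8, 19.6, 14.3 and 21.7 CPM. All 9 SCC154 libraries lay above all 9 FaDu libraries, with a log2 difference of 1.49 (SE 0.24, adjusted p = 6.55e-06) in the non-hypoxic fractions. CCNG1, cyclin G1, which directs a phosphatase to MDM2, was lower in SCC154. It was at 45.9, 55.0, 56.6 and 66.0 CPM against 26.0, 25.5, 24.03, 26.8 and 37.5 CPM in the non-hypoxic fractions and at 47.7, 70.0, 66.4, 64.5 and 52.1 CPM against 36.7, 20.8, 28.1 and 29.3 CPM in the post-hypoxic fractions. Every SCC154 library lay below every FaDu library, at log2 differences of -0.99 (SE 0.17, adjusted p = 1.76e-05) and -1.05 (SE 0.17, adjusted p = 7.74e-06).

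Among the cell cycle genes, 3 of 4 were higher in SCC154 and PLK3 was lower. CDKN1A (chr6:36676460-36687339), which encodes the kinase inhibitor p21 and is the best known arrest gene of the pathway, was at 4.73, 3.90, 4.47 and 4.29 CPM in non-hypoxic FaDu and 3.25, 5.04, 4.07, 4.11 and 3.06 CPM in post-hypoxic FaDu, that is, at 6 to 11 counts per library. In SCC154 it was at 33.4, 26.4, 21.7, 40.6 and 33.0 CPM in the non-hypoxic and 37.9, 16.03, 33.0 and 25.3 CPM in the post-hypoxic libraries. The lowest SCC154 value was above the highest FaDu value. The fitted levels differed 7.12-fold in the non-hypoxic fractions (log2 difference 2.83, SE 0.27) and 7.18-fold in the post-hypoxic fractions (log2 difference 2.84, SE 0.26). CDKN1A passed the filter on low counts through SCC154 alone, the line where it was higher. Its call is thus part of the counts above, but no test of it is given. In bulk RNA, fewer cells with a transcript and less of it in each cell cannot be told apart.

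BTG2, an antiproliferative protein that promotes mRNA deadenylation, was near the detection limit in FaDu, at 1.42, 1.30, 2.48 and 2.15 CPM and 1.63, 4.12, 0.903, 2.05 and 2.19 CPM in the non-hypoxic and post-hypoxic libraries. It was at 13.8, 12.98, 10.3, 15.5 and 12.0 CPM and 11.8, 13.1, 17.9 and 13.5 CPM in SCC154, a log2 difference of 2.80 (SE 0.31) between the non-hypoxic fractions. BTG2 too passed the filter on low counts through SCC154 alone, so no test of it is given. No libraries of the lines overlapped. PLK2, a polo-like kinase of centriole duplication, was at 27.4, 29.03, 46.2 and 48.8 CPM in non-hypoxic and 39.0, 35.2, 49.7, 58.3 and 45.5 CPM in post-hypoxic FaDu. In SCC154 it was at 181, 173, 139, 177 and 173 CPM and 148, 99.7, 111 and 158 CPM. Again no libraries overlapped, and the log2 difference was 2.16 (SE 0.18, adjusted p = 3.85e-10) in the non-hypoxic and 1.50 (SE 0.17, adjusted p = 5.32e-08) in the post-hypoxic fractions.

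PLK3, a stress-responsive kinase of the same family, went the other way. It was at 58.2, 29.5, 45.7 and 41.8 CPM in non-hypoxic FaDu, 52.0, 29.3, 36.6, 42.3 and 42.5 CPM in post-hypoxic FaDu, 30.9, 19.2, 28.0, 33.2 and 30.9 CPM in non-hypoxic SCC154 and 22.0, 23.1, 22.0 and 22.6 CPM in post-hypoxic SCC154. The non-hypoxic ranges overlapped and the post-hypoxic ranges did not, and the log2 differences were -0.61 (SE 0.19, adjusted p = 0.00569) and -0.85 (SE 0.19, adjusted p = 0.000468). The 3′ end of PLK3 is covered by 78 exon bases of TCTEX1D4 on the other strand, and the strand setting of the counting is not given in the sources used here, so reads of the pair could not be told apart.

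**Figure D2:**
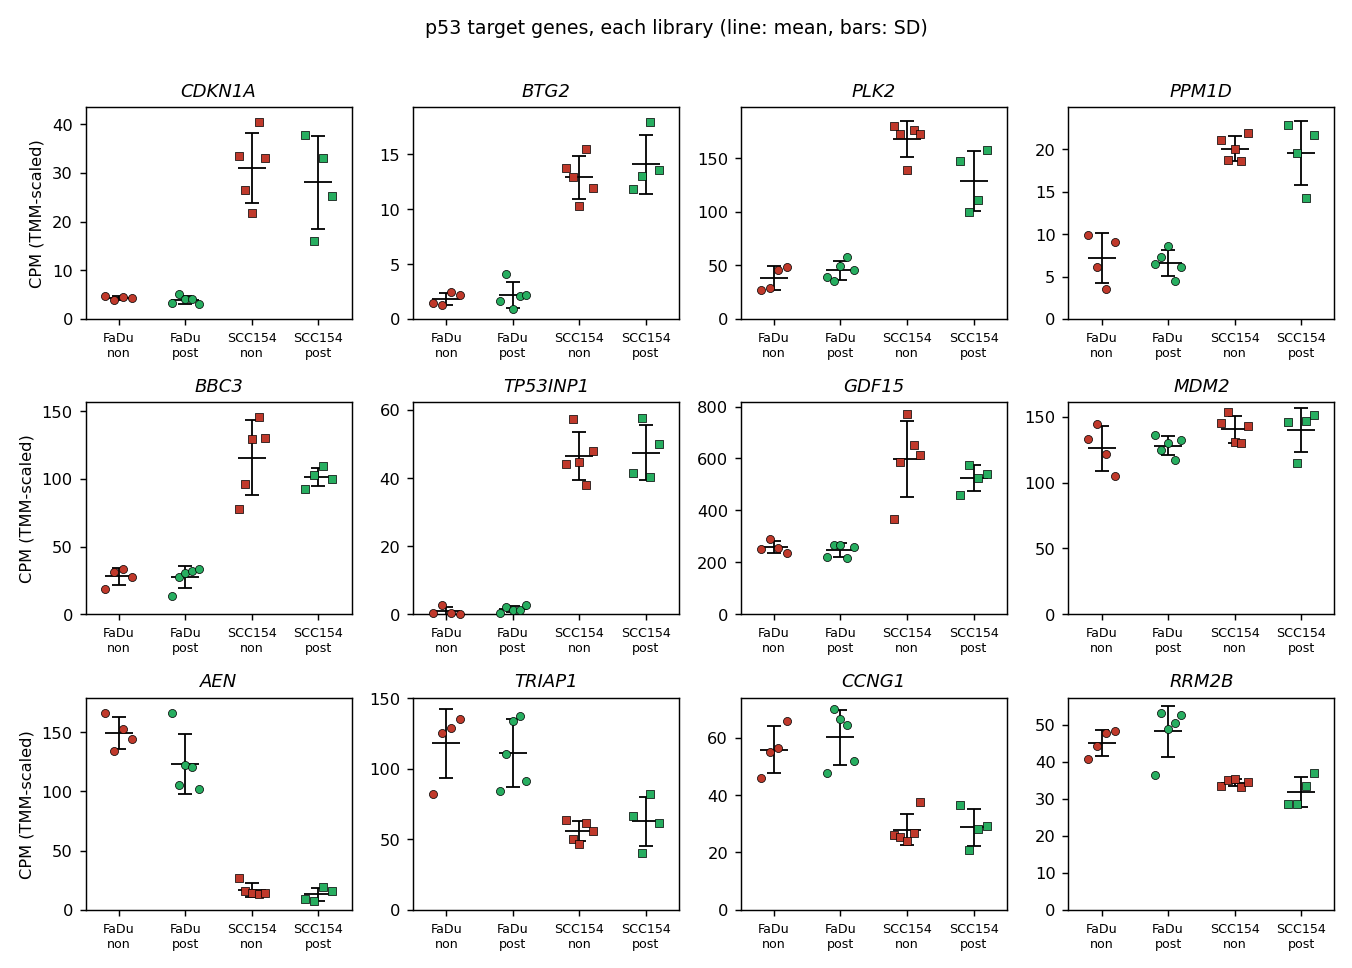
CPM of selected members in every library, 1 panel per gene, with a point per replicate, a line at each group mean and bars of 1 SD. CDKN1A, BBC3, TP53INP1 and BTG2 stand apart between the lines, AEN is high in FaDu, and MDM2 overlaps between all 4 groups.

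The cell death genes held the largest differences in both directions. TP53INP1, a nuclear protein that promotes p53 phosphorylation and autophagy, was at 0.473, 2.6, 0.497 and 0 CPM in non-hypoxic FaDu and 0.542, 2.29, 1.35, 1.23 and 2.63 CPM in post-hypoxic FaDu, 0 to 6 counts per library. Its SCC154 values were 44.2, 57.2, 44.6, 38.0 and 47.9 CPM and 41.6, 57.6, 40.4 and 50.1 CPM. TP53INP1 passed the filter on low counts through SCC154 alone, the line where it was higher, so no test of it is given. The log2 differences were 5.51 (SE 0.35) and 4.80 (SE 0.29). Because the FaDu libraries held so few counts, the size of this difference is known less well than its direction (95% intervals 4.79 to 6.23 and 4.19 to 5.41). AEN, a nuclease that takes part in apoptotic DNA breakdown, was the opposite case. It was at 166, 134, 152 and 144 CPM in non-hypoxic and 166, 105, 122, 120.3 and 102 CPM in post-hypoxic FaDu. In SCC154 it was at 26.5, 15.9, 13.7, 12.9 and 14.4 CPM and 8.96, 7.72, 19.6 and 15.8 CPM. Every SCC154 library was below every FaDu library, 8.94-fold by the fitted levels in the non-hypoxic fractions (log2 difference -3.16, SE 0.21, adjusted p = 4.96e-12) and with a log2 difference of -3.21 in the post-hypoxic ones (SE 0.23, adjusted p = 1.53e-11).

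BBC3, which encodes the BH3-only protein PUMA, a direct trigger of mitochondrial cell death, was at 18.9, 31.2, 33.8 and 27.9 CPM in non-hypoxic and 13.6, 27.9, 30.7, 32.0 and 33.7 CPM in post-hypoxic FaDu. The SCC154 libraries had 77.6, 96.2, 129, 146 and 129.9 CPM and 92.9, 103, 109.7 and 100.2 CPM. The lines did not overlap, and the log2 differences were 2.05 (SE 0.21, adjusted p = 9.69e-09) and 1.86 (SE 0.20, adjusted p = 2.12e-08). PMAIP1 (NOXA), its fellow BH3-only gene, was called higher as well, by 1.38 (SE 0.13, adjusted p = 1.29e-09) and 1.39 (SE 0.12, adjusted p = 7.07e-10) on the log2 scale, from group means of 52.3 and 49.2 CPM in FaDu to 137 and 129 CPM in SCC154. BAX, the pore-forming protein these act on, ran at low counts, 0.473 to 10.7 CPM in non-hypoxic FaDu and 0.962 to 4.12 CPM in non-hypoxic SCC154, and did not pass the test (log2 difference -0.99, SE 0.55, adjusted p = 0.112 and -1.10, SE 0.53, adjusted p = 0.0700). It was called lower in both fractions with no filter on low counts (adjusted p = 0.0453 and 0.0204 by edgeR) and with a replicate block shared across the lines. BAX passed the filter through FaDu alone, the line where it was higher, so a call under the filter is no support for a difference.

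TP53I3, a quinone oxidoreductase linked to oxidative stress in cell death, was at 3.78, 7.37, 4.97 and 8.05 CPM in non-hypoxic and 3.79, 3.21, 5.42, 3.29 and 3.501 CPM in post-hypoxic FaDu. It was at 16.2, 13.5, 10.3, 15.97 and 15.3 CPM and 25.3, 16.03, 26.9 and 16.7 CPM in SCC154. The lines did not overlap, and the log2 difference was 1.24 (SE 0.25, adjusted p = 0.000137) in the non-hypoxic and 2.47 (SE 0.25, adjusted p = 6.37e-09) in the post-hypoxic fractions. TRIAP1, a small mitochondrial protein that restrains apoptosis, was lower in SCC154. It was at 82.3, 125, 129 and 136 CPM in non-hypoxic and 84.0, 111, 134, 138 and 91.5 CPM in post-hypoxic FaDu. The SCC154 libraries were at 63.4, 50, 46.9, 61.7 and 56.1 CPM and 66.4, 40.4, 82.4 and 61.4 CPM. The log2 differences were -1.08 (SE 0.18, adjusted p = 1.47e-05) and -0.82 (SE 0.18, adjusted p = 0.000376), and the lines did not overlap within a fraction. PHLDA3, an inhibitor of AKT, was called higher in SCC154 by a small margin (0.26, SE 0.10, adjusted p = 0.0252 and 0.45, SE 0.10, adjusted p = 0.00033 on the log2 scale), and its 3′ end is shared with the transcript AC096677.2 on the same strand.

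The death receptors did not follow one pattern. FAS, the receptor of FAS ligand, was at group means of 9.23 and 9.41 CPM in FaDu and 13.9 and 11.9 CPM in SCC154 and did not pass the test (adjusted p = 0.0628 and 0.309). TNFRSF10C, a decoy receptor for the death ligand TRAIL, and EDA2R, an ectodysplasin receptor, had 0 counts in all 18 libraries, which allows group means of up to 0.274 to 0.361 CPM (3 counts over a group; counting error only).

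In DNA repair, DDB2, which recognises ultraviolet lesions, was higher in SCC154 in all libraries: 59.6 to 75.4 CPM and 56.4 to 87.1 CPM in the FaDu fractions against 128 to 153 CPM and 141 to 181 CPM, with log2 differences of 1.09 (SE 0.12, adjusted p = 3.21e-08) and 1.09 (SE 0.12, adjusted p = 1.77e-08). RRM2B, the p53-induced subunit of ribonucleotide reductase, was lower in SCC154. It was at 40.7, 44.2, 47.7 and 48.3 CPM in non-hypoxic and 36.3, 53.1, 48.8, 50.5 and 52.5 CPM in post-hypoxic FaDu. The SCC154 libraries were at 33.4, 35.1, 35.5, 33.2 and 34.6 CPM and 28.5, 28.5, 33.5 and 37.0 CPM. The ranges were apart in the non-hypoxic fractions and overlapped in the post-hypoxic ones through FaDu replicate 1, and the log2 differences were -0.39 (SE 0.13, adjusted p = 0.0102) and -0.60 (SE 0.13, adjusted p = 0.000304). POLH, the polymerase that copies past ultraviolet lesions, was higher in SCC154 in the non-hypoxic fractions (0.51, SE 0.13, adjusted p = 0.00112 on the log2 scale), while in the post-hypoxic ones the log2 difference was -0.03 (SE 0.13, adjusted p = 0.846) with an interval of -0.29 to 0.24.

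Of the metabolic members, FDXR was higher in SCC154 and TIGAR was lower in 1 of the fractions. FDXR, the reductase that feeds electrons to mitochondrial cytochromes, was called higher in SCC154 in both fractions (0.76, SE 0.21, adjusted p = 0.00235 and 1.20, SE 0.19, adjusted p = 7.81e-06 on the log2 scale). TIGAR, a fructose bisphosphatase that slows glycolysis, was at group means of 10.1 and 9.85 CPM in FaDu and 6.89 and 4.88 CPM in SCC154, at log2 differences of -0.54 (SE 0.31, adjusted p = 0.123) and -0.99 (SE 0.32, adjusted p = 0.00979), and was called in the post-hypoxic fractions. It shares 1711 exon bases with AC008012.1 on the same strand, away from its 3′ end. SESN1, a sestrin that restrains mTORC1, did not pass the test (adjusted p = 0.626 and 0.808), and SPATA18, a mitochondrial quality control gene, had 0 to 5 counts per library.

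Of the others, GDF15, a secreted stress cytokine, was at 253, 291, 256 and 237 CPM in non-hypoxic and 219, 269, 269, 217 and 261 CPM in post-hypoxic FaDu. In SCC154 it was at 366, 585, 772, 652 and 615 CPM and 458, 576, 523 and 541 CPM. All SCC154 libraries exceeded all FaDu libraries, with log2 differences of 1.20 (SE 0.15, adjusted p = 1.32e-07) and 1.08 (SE 0.14, adjusted p = 3.94e-07). ZMAT3, an RNA-binding splicing regulator, and SUSD6, a membrane protein with a sushi domain, also stood above every FaDu library (1.16 and 1.39 on the log2 scale in the non-hypoxic fractions). SERPINB5 (maspin) was called higher by 0.85 and 0.70 at adjusted p = 0.0177 and 0.0361, and CMBL, a hydrolase, was not called (adjusted p = 0.0538 and 0.552).

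Over all 18 libraries, 12 members were higher in each SCC154 library than in any FaDu library (BBC3, BTG2, CDKN1A, DDB2, GDF15, PLK2, PMAIP1, PPM1D, SUSD6, TP53I3, TP53INP1 and ZMAT3), 2 were lower (AEN and CCNG1) and 14 overlapped, so that 14 of 28 did not overlap. Over the same libraries 43.4% of all tested genes did not overlap, 22.1% higher and 21.3% lower. Of the 12 higher members, BTG2, CDKN1A and TP53INP1 had passed the filter on low counts through SCC154 alone. Within the non-hypoxic fractions 19 of the 28 did not overlap, where 56.5% of all tested genes did not, and within the post-hypoxic fractions 18 of 28, against 57.3%. Across the 27 other settings and left-out libraries tried, 19 of the 21 calls in the non-hypoxic and 20 of the 21 in the post-hypoxic fractions held. These include the calls of BTG2, CDKN1A and TP53INP1, which entered the test through SCC154 alone, so that their holding is no support for a difference. PHLDA3 lost its non-hypoxic call without non-hypoxic FaDu replicate 1, 3 or 4 or non-hypoxic SCC154 replicate 3 or 4 (adjusted p 0.0516 to 0.0673). SERPINB5 lost it without non-hypoxic FaDu replicate 1 or 2 or non-hypoxic SCC154 replicate 4 (0.0640 to 0.0795). In the post-hypoxic fractions SERPINB5 lost its call without FaDu replicate 1, 2 or 5 or SCC154 replicate 2 or 4 (0.0579 to 0.223). Calls were gained by BAX in both fractions without non-hypoxic FaDu replicate 1. In the post-hypoxic fractions BAX also gained a call without post-hypoxic FaDu replicate 1 or 2 or post-hypoxic SCC154 replicate 4. With all libraries BAX had passed the filter through FaDu alone, the line where it was higher, so these gains are no support for a difference. In the non-hypoxic fractions calls were also gained by FAS without SCC154 non-hypoxic replicate 4 or 5 or post-hypoxic replicate 4 (0.0288 to 0.0378), by TIGAR without non-hypoxic FaDu replicate 2 (0.0285), and by CMBL without post-hypoxic FaDu replicate 2 or 4 or post-hypoxic SCC154 replicate 3 (0.0375 to 0.0485).

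In the main fit, which used no block, no member passed the test between the post-hypoxic and non-hypoxic fractions of either line. The fractions were compared after both had grown in normal oxygen. In FaDu, 0 of 28 tested members were called, where 0% of all 12291 genes were called, with an unadjusted p under 0.05 for 1 member and for 298 genes in all. DESeq2 called 0 members there and 3 genes, and the fit with the replicate number as a block called 0 members and 7 genes. By sign, 15 members were higher and 13 lower, with a median log2 difference of 0.03, and no member had ranges that did not overlap, against 1.07% of all genes. The interval of the post minus non difference was -0.87 to 0.58 for CDKN1A, -0.20 to 0.24 for MDM2, -0.47 to 0.46 for BBC3 and -0.37 to 0.23 for GDF15, which bounds the changes that this depth allows.

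The member with the lowest p in FaDu was TP53I3, at 6.04 ± 2.00 CPM (SD, n = 4) in the non-hypoxic and 3.84 ± 0.912 CPM (SD, n = 5) in the post-hypoxic libraries. Only non-hypoxic replicates 2 and 4 lay above all post-hypoxic libraries, and the log2 difference was -0.64 (SE 0.30, unadjusted p = 0.0450, adjusted p = 1 by edgeR). AEN followed, at 149 ± 13.6 CPM (SD, n = 4) against 123 ± 25.6 CPM (SD, n = 5), a log2 difference of -0.28 (SE 0.18, adjusted p = 1), and PLK2, a log2 difference of 0.28 (SE 0.19, adjusted p = 1).

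In SCC154, again 0 of 28 members were called, where 0.757% of all genes were (93 genes, 0.334% higher and 0.423% lower). By unadjusted p under 0.05 there were 5 members (POLH, FDXR, SUSD6, TP53I3 and PLK2) and 1930 genes. DESeq2 called 2 members, POLH and FDXR, and 207 genes in all. The median log2 difference was 0.01, with 14 members higher and 14 lower by sign, and 1 member, POLH, had ranges that did not overlap, against 5.55% of all genes.

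POLH (chr6:43576150-43615660) was at 102, 121, 96.1, 114 and 125 CPM in the non-hypoxic and 72.1, 79.5, 71.8 and 93.9 CPM in the post-hypoxic SCC154 libraries, a log2 difference of -0.50 (SE 0.13, adjusted p = 0.0622) with an interval of -0.76 to -0.23. The FaDu means were 78.5 and 80.8 CPM. FDXR was at 46.2, 47.6, 37.2, 74.2 and 53.2 CPM in the non-hypoxic and 100.2, 64.1, 101 and 67.7 CPM in the post-hypoxic libraries, a log2 difference of 0.69 (SE 0.19, adjusted p = 0.0848). Here the ranges overlapped through non-hypoxic replicate 4. SUSD6 was at 61.4, 48.1, 38.3, 41.4 and 45.4 CPM and 73.7, 79.0, 51.8 and 55.5 CPM, a log2 difference of 0.46 (SE 0.16, adjusted p = 0.167) with overlapping ranges. TP53I3, with the values given above, differed by 0.58 (SE 0.21, adjusted p = 0.169) on the log2 scale, and PLK2 by -0.38 (SE 0.16, adjusted p = 0.255).

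The differences of POLH and FDXR lay close to the threshold. POLH passed without post-hypoxic SCC154 replicate 5 (adjusted p = 0.0340) and FDXR without non-hypoxic replicate 4 (0.0363) or post-hypoxic replicate 3 (0.0449). Over all settings and left-out libraries the adjusted p by edgeR, DESeq2 or voom ran from 0.00305 to 0.231 for POLH and from 0.00261 to 0.276 for FDXR, with 6 of 28 under the threshold for each. CDKN1A, MDM2, BBC3 and GDF15 did not pass in SCC154. The intervals of the log2 difference were -0.54 to 0.28 for CDKN1A, -0.22 to 0.22 for MDM2, -0.58 to 0.19 for BBC3 and -0.48 to 0.10 for GDF15.

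**Figure D3:**
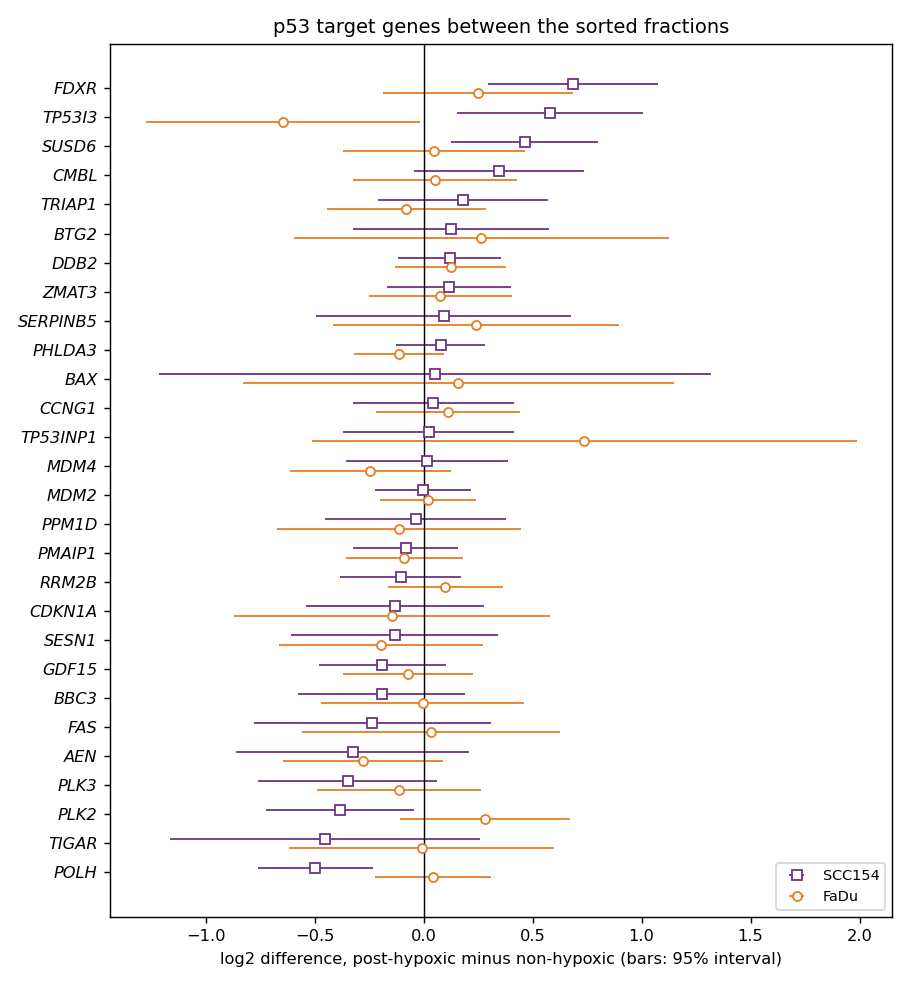
The log2 difference between the post-hypoxic and the non-hypoxic fraction of each of the 28 tested members, in FaDu and in SCC154, with 95% intervals, ordered by the SCC154 difference. The differences lie within 0.74 of 0 in both lines, and none passed the test in the main fit.

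The response was also compared between the lines, as the SCC154 difference minus the FaDu difference. No member was called (0 of 28, against 0.0163% of all genes), with an unadjusted p under 0.05 for 3 members and 1202 genes. DESeq2 called 0 members and 21 genes. TP53I3 was lower in the post-hypoxic fraction by value in FaDu and higher by value in SCC154, and the difference of the 2 was 1.23 on the log2 scale (SE 0.37, interval 0.46 to 1.99, adjusted p = 0.321 by edgeR). For POLH it was -0.54 (SE 0.18, adjusted p = 0.332) and for PLK2 -0.66 (SE 0.25, adjusted p = 0.401). With the replicate block within each line, PLK2 was called (-0.64, adjusted p = 0.0364 by edgeR), in a fit that called 224 genes in all and pairs the libraries of both lines by number.

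Within FaDu, several members, named after their values were seen, had replicate 1 as the lowest or highest library of both fractions. The share of all tested genes that do so was not counted. BBC3 was lowest in replicate 1 of both fractions, at 18.9 and 13.6 CPM, against 27.9 to 33.8 CPM in the other FaDu libraries. TRIAP1 was also lowest in replicate 1 of both, at 82.3 and 84.0 CPM. MDM4 was highest in replicate 1 of both (133 and 102.5 CPM), as were AEN, SUSD6 and PLK3. Across all tested genes, the deviations of same-numbered FaDu libraries had a pairwise r of 0.178 to 0.447 over 4 pairs, and SCC154 pairs ran from 0.0292 to 0.398. Pairs of different numbers reached 0.242 in FaDu and 0.201 in SCC154.

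Genes that control p53 were compared between the lines as well. Of 26 genes of the p53 family and its regulators, all tested, 9 were higher and 12 lower in SCC154 in the non-hypoxic fractions. In the post-hypoxic fractions 9 were higher and 10 lower. Over all genes tested, 68.9% and 69.7% were called, so these counts are not read as a result about the regulators. The median log2 difference of the 26 was -0.05 and -0.01, against -0.01 and 0.01 over all genes tested. The count is of transcript ends and says nothing of protein.

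UBE3A, the ligase that E6 recruits, was at 460.1, 426, 391 and 424 CPM in non-hypoxic FaDu and 440.5, 426, 424, 353 and 396 CPM in non-hypoxic SCC154, with overlapping ranges and a log2 difference of -0.06 (SE 0.10, adjusted p = 0.579) and an interval of -0.26 to 0.14. CDKN2A, which encodes p16 and the MDM2 inhibitor ARF and whose p16 product is the clinical marker of papillomavirus in this cancer, was higher in SCC154, at 192 ± 5.996 CPM (SD, n = 5) against 67.5 ± 0.978 CPM (SD, n = 4) in the non-hypoxic fractions, a log2 difference of 1.51 (SE 0.10, adjusted p = 3.58e-12). The 3′ tag does not separate p16 from ARF. TP63, the squamous lineage member of the family, was lower in SCC154 (-0.85, SE 0.16, adjusted p = 6.26e-05 and -1.01, SE 0.16, adjusted p = 7.24e-06 on the log2 scale).

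TP73, the third member of the family, had 1 count in all 4 non-hypoxic FaDu libraries together and 215 in non-hypoxic SCC154, a ratio of 168 after scaling for library size, with a 95% counting interval of 29.9 to 6680. In the post-hypoxic fractions it had 5 counts over the FaDu group, a mean of 0.445 CPM, against 22.0 CPM in SCC154. It passed the filter on low counts through SCC154 alone, the line where it was higher, so its call is part of the counts above but no test of it is given. Its 3′ end overlaps TP73-AS1 on the other strand. The acetyltransferase CREBBP and the deubiquitinase USP7, both of which act on p53, were lower in SCC154, at group means of 40.5 against 246 CPM and 172 against 516 CPM in the non-hypoxic fractions (log2 differences -2.61, SE 0.14, adjusted p = 1.20e-13 and -1.59, SE 0.10, adjusted p = 1.02e-12). KAT5, a further acetyltransferase of p53, was also lower (-1.52, SE 0.21, adjusted p = 1.02e-06), and its last exons lie under exons of RNASEH2C on the other strand, which was itself at 21.0 CPM in non-hypoxic SCC154 and 73.5 CPM in non-hypoxic FaDu.

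**Figure D4:**
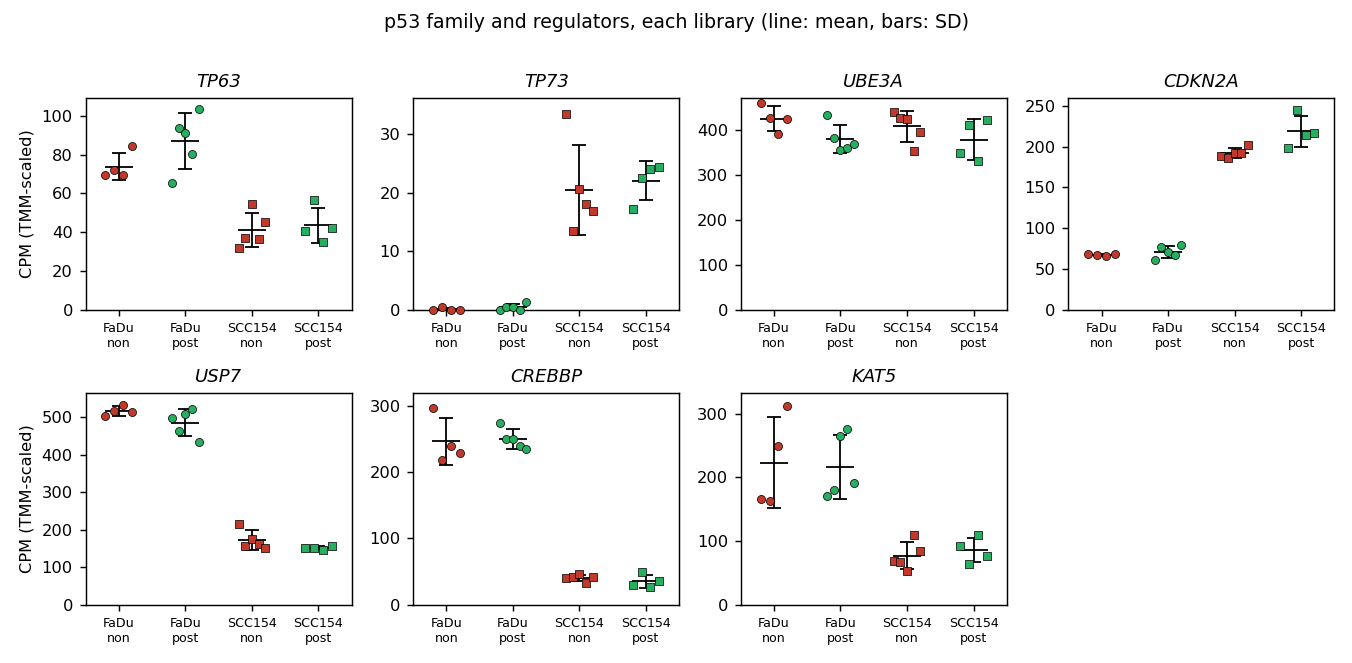
CPM of TP63, TP73, UBE3A, CDKN2A, CREBBP, USP7 and KAT5 in every library, by group, with a line at each group mean and bars of 1 SD. TP73 and CDKN2A are higher in SCC154, CREBBP, USP7, KAT5 and TP63 are higher in FaDu, and UBE3A overlaps between the lines.

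A list of 51 further p53 targets, of which 43 were tested, gave 30 higher and 8 lower in SCC154 in the non-hypoxic fractions and 29 and 6 in the post-hypoxic fractions, with a median log2 difference of 0.83 and 0.79. Over all genes tested, 68.9% and 69.7% were called, 34.5% and 34.8% higher, with medians of -0.01 and 0.01. Of the 43, 7 passed the filter on low counts through SCC154 alone (TNFRSF10A, TNFRSF10D, PRDM1, FUCA1, NINJ1, STEAP3 and TRIM22) and PANK1 through FaDu alone. Among the receptors for TRAIL, TNFRSF10D and TNFRSF10A were nearly without counts in FaDu, while TNFRSF10B was at 42.9 to 85.8 CPM in non-hypoxic FaDu and 71.5 to 91.9 CPM in non-hypoxic SCC154, overlapping ranges with a log2 difference of 0.48 (SE 0.15, adjusted p = 0.00834). TNFRSF10D, a decoy receptor, had 0 counts in all 9 FaDu libraries and was at 64.3, 150.5, 152, 173 and 174 CPM in non-hypoxic SCC154, at least 395-fold higher (against 3 counts over the group). TNFRSF10A, a death-inducing receptor, had 1 count in non-hypoxic FaDu, against 80.8 CPM in SCC154, a ratio of 675 with a counting interval of 121 to 26700; the antisense gene at its 3′ end, TNFRSF10A-AS1, had no count in any library. The transcriptional repressor PRDM1 had 0 counts in FaDu as well and was at least 55.2-fold higher in non-hypoxic SCC154.

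PLXNB2, a semaphorin receptor, and DRAM1, a lysosomal gene of autophagy, were higher in SCC154 in the non-hypoxic fractions. The log2 differences were 3.30 (SE 0.14, adjusted p = 3.25e-15 by edgeR) and 2.69 (SE 0.21, adjusted p = 7.55e-11). Of the 8 that were lower in the non-hypoxic fractions, the 5 largest differences at a mean of at least 5 CPM were those of ORAI3, FBXO22, IKBIP, BLOC1S2 and PERP. Their log2 differences there were -0.85, -0.64, -0.63, -0.47 and -0.46. In the post-hypoxic fractions ORAI3 did not pass the test (-0.25, adjusted p = 0.276 by edgeR). FBXO22, IKBIP, BLOC1S2 and PERP were called lower there too, at -0.39, -0.52, -0.69 and -0.41. BLOC1S2 lost its non-hypoxic call without replicate 2 or 3 of non-hypoxic FaDu or of non-hypoxic SCC154 (adjusted p 0.0520 to 0.0739). The 3′ ends of ORAI3 and FBXO22 overlap other genes, AC135048.1 and NRG4, and NRG4 was at 5.82 CPM in non-hypoxic FaDu and had no count in non-hypoxic SCC154.

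Within the lines, 0 of the 43 further targets were called in FaDu and 1 in SCC154, where 0% and 0.757% of all genes were called. That gene, named because it was the only call, was ARHGEF3, an exchange factor for RhoA. It was at 50.6, 76.9, 60.6, 72.1 and 72.2 CPM in the non-hypoxic and 96.97, 104, 119.5 and 114 CPM in the post-hypoxic SCC154 libraries, which did not overlap, a log2 difference of 0.71 (SE 0.12, adjusted p = 0.00796). In FaDu it was at 60.4 and 62.7 CPM, a log2 difference of 0.05 (SE 0.13, adjusted p = 1), and the difference between the lines was 0.65 (SE 0.18, adjusted p = 0.268). With the replicate block within each line that difference was called (0.59, adjusted p = 0.0361 by edgeR), again with the libraries of both lines paired by number. The SCC154 call held in all 28 settings and left-out libraries, with an adjusted p of 4.77e-05 to 0.0440.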

How the data were processed

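The authors deposited whole-number read counts per gene symbol for 18 libraries. Per the submitters' processing notes, the tools were HISAT2 2.2.1 (build hg38), featureCounts 1.5.1, UMI-tools 1.1.5 and DESeq2, with Trimmomatic 0.39 and FastQC 0.11.9. Their order and settings, the annotation, the strand setting and the role of UMIs were not given in the sources used here. Groups and replicate numbers came from sample titles. The 12291 genes that passed filterByExpr were fitted with edgeR 4.0.16 (R 4.3.3; TMM factors, quasi-likelihood, 4 group means over all 18 libraries, 14 residual degrees of freedom, common biological coefficient of variation 0.148), and p-values were adjusted by Benjamini-Hochberg over all genes in each of 5 comparisons, with a threshold of 0.05. The scripts were tested on simulated data. SEs are the log2 difference over the square root of F, and intervals cover 95%. Of 32 replicate pairs within groups, none matched within sampling noise (chi-square per degree of freedom 1.84 to 11.7). Same-numbered pairs had r of 0.178 to 0.447 in FaDu and 0.0292 to 0.398 in SCC154. Pairs of different numbers ran from -0.433 to 0.242 in FaDu and from -0.404 to 0.201 in SCC154. These ranges overlap in both lines, so the values do not settle whether the numbers pair libraries. The main fit used no block, and fits with a block are given beside it. The block changed no FaDu member call; for the difference between the responses it called PLK2 and ARHGEF3 among the genes named.

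Every library value was given for CDKN1A, MDM2, BBC3 and GDF15, for up to 6 members per direction with the largest called difference between the non-hypoxic lines (mean of at least 5 CPM), and for the 3 of lowest p within each line. Of the regulators, TP63, UBE3A, CDKN2A and the 3 largest per direction were named, except 1 that is not reported here, and of the further targets the 5 largest. Members and lists were chosen with earlier results of these data known. Alternatives were other normalizations, no filter, DESeq2 1.42.0, limma 3.58.1 (voom), replicate blocks, the compared libraries alone, and each library left out.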

Additional observations from a re-analysis of the deposited data

Results flagged for a closer look

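In each group, a library was singled out where its gap to the nearest other library was large for the range of the group (Dixon's criterion at 95%). Among 144 sets of a gene and a group (28 members and 8 regulators), 13 libraries were singled out, where chance gives about 7.2 (1 in 20).

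In FaDu, BBC3 was at 13.6 CPM and RRM2B at 36.3 CPM in post-hypoxic replicate 1, both below the other libraries of that group (from 27.9 CPM for BBC3 and 48.8 CPM for RRM2B). BAX was at 12.7 CPM in post-hypoxic replicate 4 (others up to 5.87 CPM), TP53I3 at 5.42 CPM in post-hypoxic replicate 3 (others up to 3.80 CPM), and SUSD6 at 25.1 CPM in non-hypoxic replicate 1 (others up to 16.5 CPM). TP63 was at 84.2 CPM in non-hypoxic replicate 4 (others up to 71.9 CPM), and TP73 at 0.433 CPM in non-hypoxic replicate 2, which is 1 count where the others had 0.

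In SCC154, AEN was at 26.5 CPM in non-hypoxic replicate 1 (others up to 15.9 CPM) and CCNG1 at 37.5 CPM in non-hypoxic replicate 5 (others up to 26.8 CPM). PLK2 was at 139 CPM (others from 173 CPM) and SESN1 at 14.9 CPM (others up to 10.3 CPM) in non-hypoxic replicate 3. Post-hypoxic replicate 3 held DDB2 at 181 CPM (others up to 145 CPM) and MDM2 at 115 CPM (others from 146 CPM). None of these libraries turned the direction of a called member when left out.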

How the results depend on the processing

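No called value of a named gene changed direction in the settings it was fitted in, 27 between the lines and up to 28 within them. Between the lines, leaving out 1 library at a time gave 8051 to 8662 genes and 20 to 22 members in the non-hypoxic fractions, and 8229 to 8760 genes and 20 to 22 members in the post-hypoxic fractions. Outside the left-out libraries, PHLDA3 lost its non-hypoxic call with no filter (adjusted p = 0.0751) and SERPINB5 its post-hypoxic call with voom (adjusted p = 0.0632). Calls were gained in the non-hypoxic and post-hypoxic fractions by BAX with no filter (adjusted p = 0.0453 and 0.0204 by edgeR). BAX also gained calls in both fractions with the block shared across the lines, and in the post-hypoxic fractions with only the libraries compared. It had passed the main filter through FaDu alone, so these further gains are no support for a difference. In the non-hypoxic fractions FAS gained a call with library size alone (0.0407) and the shared block (0.0298), and CMBL with the shared block (0.0317) and only the libraries compared (0.0256). The shared block thus called 24 and 22 members, of 8727 and 8898 genes. FBXO22 lost its post-hypoxic call with library size alone (0.0505).

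Within the lines the counts moved more. In FaDu the 0 genes called became 10 with no filter, 3 with DESeq2 and 7 with the replicate block within each line, and 0 to 1 without 1 library, with 0 members throughout. In SCC154 the 93 genes became 291 with no filter, 207 with DESeq2, 1052 with the replicate block within each line, 243 with the block shared across the lines and 22 with only the libraries compared, and 20 to 190 without 1 library. The 0 members became 2 with no filter and with DESeq2 (POLH and FDXR), 1 with voom (POLH), 6 with the block within each line (TP53I3, PLK2, POLH, SUSD6, FDXR and GDF15), 3 with the shared block (POLH, SUSD6 and FDXR) and 0 to 1 without 1 library. The 2 genes of the difference between the responses became 51 with no filter, 21 with DESeq2, 224 with the block within each line and 5 with the shared block, and 2 to 3 without 1 library; the 0 members became 1 with the block within each line (PLK2, -0.64, adjusted p = 0.0364) and stayed at 0 without 1 library. Regulators called within SCC154 ran from 0 to 3 and further targets from 1 to 7 over the same settings. The cause of these moves was not tested. Same-numbered SCC154 pairs had r of 0.0292 to 0.398, against at most 0.201 for pairs of different numbers. In both lines a call with the block rests on a pairing the labels do not state. At 1.69 to 2.45 counts per CPM, depth limits SPATA18, BAX, and BTG2, CDKN1A and TP53INP1 in FaDu.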
